A study of Mus musculus with 11 samples.

Results

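The 36 genes described here encode the glycolytic pathway and the transcriptional response to low oxygen. They were taken by gene name as a fixed list, without reference to a threshold, and all 36 are among the 35597 genes of the deposited table on site and the 35083 genes used from the deposited table on genotype. They comprise 17 glycolytic enzymes, 6 regulators and transporters of glycolysis, 3 genes of oxygen sensing and 10 other hypoxia targets. Transcripts were measured by RNA sequencing of sorted macrophages from C57BL/6 mice, 6 to 8 weeks old, 14 days after 500000 Lewis lung carcinoma cells, a transplantable mouse lung tumor line, were injected under the skin. KO_TAM are tumor-associated macrophages of LysMCre;Sin1fl/fl mice (4 libraries), WT_TAM are tumor-associated macrophages of Sin1fl/fl mice without Cre (4 libraries), and WT_SP are splenic macrophages of Sin1fl/fl mice without Cre (3 libraries). Every mouse thus carried the floxed Sin1 alleles and a tumor, and Cre was present in KO_TAM alone, so that its presence and the deletion cannot be told apart. LysM-Cre is expressed from the lysozyme 2 locus in macrophages, monocytes and neutrophils. The cells from tumors were sorted as CD11b+ F4/80+ and those from spleens as F4/80+ with low CD11b and no TCRβ, in both cases within CD45+ cells that lacked Ly6G and Ly6C. Nothing in the labels states that each library came from its own mouse, so the p-values measure the spread between libraries, which may be technical.

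Glycolysis converts glucose to pyruvate in the cytosol, and lactate dehydrogenase turns pyruvate into lactate so that the pathway can run without mitochondrial respiration. When oxygen falls, the prolyl hydroxylases of the EGLN family no longer mark the factor HIF1α for destruction, and HIF1α then activates glycolytic genes, glucose and lactate transporters, and genes for mitophagy, lipid storage and collagen modification. Macrophages in tumors and macrophages activated by microbial products are known for high glycolysis. Sin1, the product of Mapkap1, belongs to mTOR complex 2, a kinase complex that acts on AKT downstream of growth factor receptors.

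The libraries held between 7639550 reads (WT_TAM replicate 4) and 13118534 reads (KO_TAM replicate 1). Levels are given in CPM, the usual scaling of reads to the library total, with the total multiplied by the factor that the authors gave that library in that table, and values of the same library therefore differ between the 2 tables. Mapkap1 had 44.0, 54.1, 43.3 and 45.9 CPM in KO_TAM, against 71.1, 66.4, 59.7 and 30.7 CPM in WT_TAM. The KO_TAM libraries lay below 3 WT_TAM libraries and above WT_TAM replicate 4, and the difference was not called (log2 fold change -0.22 ± 0.26 SE, limma adjusted p = 0.658). A count over the whole gene need not show the loss of floxed exons. The summed level of 9 macrophage markers was 10377 to 19857 CPM in WT_TAM and 3032 to 3730 CPM in WT_SP. The 6 markers of splenic red pulp macrophages summed to 259.5 to 692 CPM in WT_TAM and 3722 to 4181 CPM in WT_SP, and the 8 markers of B and plasma cells to 41.3 to 216 CPM in WT_TAM and 23627 to 30731 CPM in WT_SP. The 9 markers of T and NK cells summed to 67.4 to 123 CPM in WT_TAM and 952 to 1032 CPM in WT_SP, and the 10 neutrophil markers to 118 to 238 CPM in WT_TAM and 1075 to 2942 CPM in WT_SP. The WT_SP libraries therefore held lymphocyte transcripts at a higher summed level than macrophage markers, although their sort was for F4/80+ cells.

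The first comparison asked how the macrophages of the tumor differed from those of the spleen of the same kind of mouse. Glycolytic genes and hypoxia targets were higher in WT_TAM almost throughout. Of the 36 genes, 29 were higher at a limma adjusted p under 0.05, 0 were lower and 7 were not called. Over all 14301 genes tested, 46.7% were called, 22.6% higher and 24.1% lower. The 4 WT_TAM libraries lay above all 3 WT_SP libraries in 29 members, which was the case for 25.8% of all genes tested. Log2 fold changes had a median of 2.59 over the members (range -0.32 to 6.32) and of -0.08 over all tested genes. With scaling by the library total alone, the median was 2.12 over the members and -0.52 over all genes tested, 14.9% of all genes were called higher and 39.4% lower, and 27 members were called higher, without Hk1 and Hif1a.

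By class, 15 of 17 glycolytic enzymes were higher, with a median log2 fold change of 2.90 and a range of 0.82 to 3.84. Of the regulators and transporters 4 of 6 were higher (median 1.64), of the oxygen sensing genes 3 of 3 (median 1.78), and of the other hypoxia targets 7 of 10 (median 2.37). The other 19 members had a median of 2.16 and a wider range, from -0.32 to 6.32. In bulk RNA, more cells of a type and more RNA per cell cannot be told apart. The summed B and plasma cell, T and NK cell, neutrophil and red pulp markers given above moved in the opposite direction to the members. Those of other cells moved in the same direction: the 5 monocyte markers summed to 1472 to 2655 CPM in WT_TAM and 389 to 549.9 CPM in WT_SP, the 7 epithelial or carcinoma markers to 90.7 to 299 CPM in WT_TAM and 12.2 to 16.99 CPM in WT_SP, and the 7 fibroblast markers to 440 to 991 CPM in WT_TAM and 8.88 to 48.3 CPM in WT_SP. These sums do not hold for each gene. All 7 fibroblast markers were called higher, but of the 5 monocyte markers 3 were called higher and 1 lower. Of the epithelial or carcinoma markers, Krt8, Krt19, Krt7 and Cldn4 were under 1 CPM in every library of both groups. Of the 3 that could be tested, 1 was called higher and 1 lower. The sum of 9 mitochondrially encoded genes was 11152 to 70289 CPM in WT_TAM, against 5909 to 7916 CPM in WT_SP. The part of these differences in cell make-up and RNA in the members' values was not tested.

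**Figure D1:**
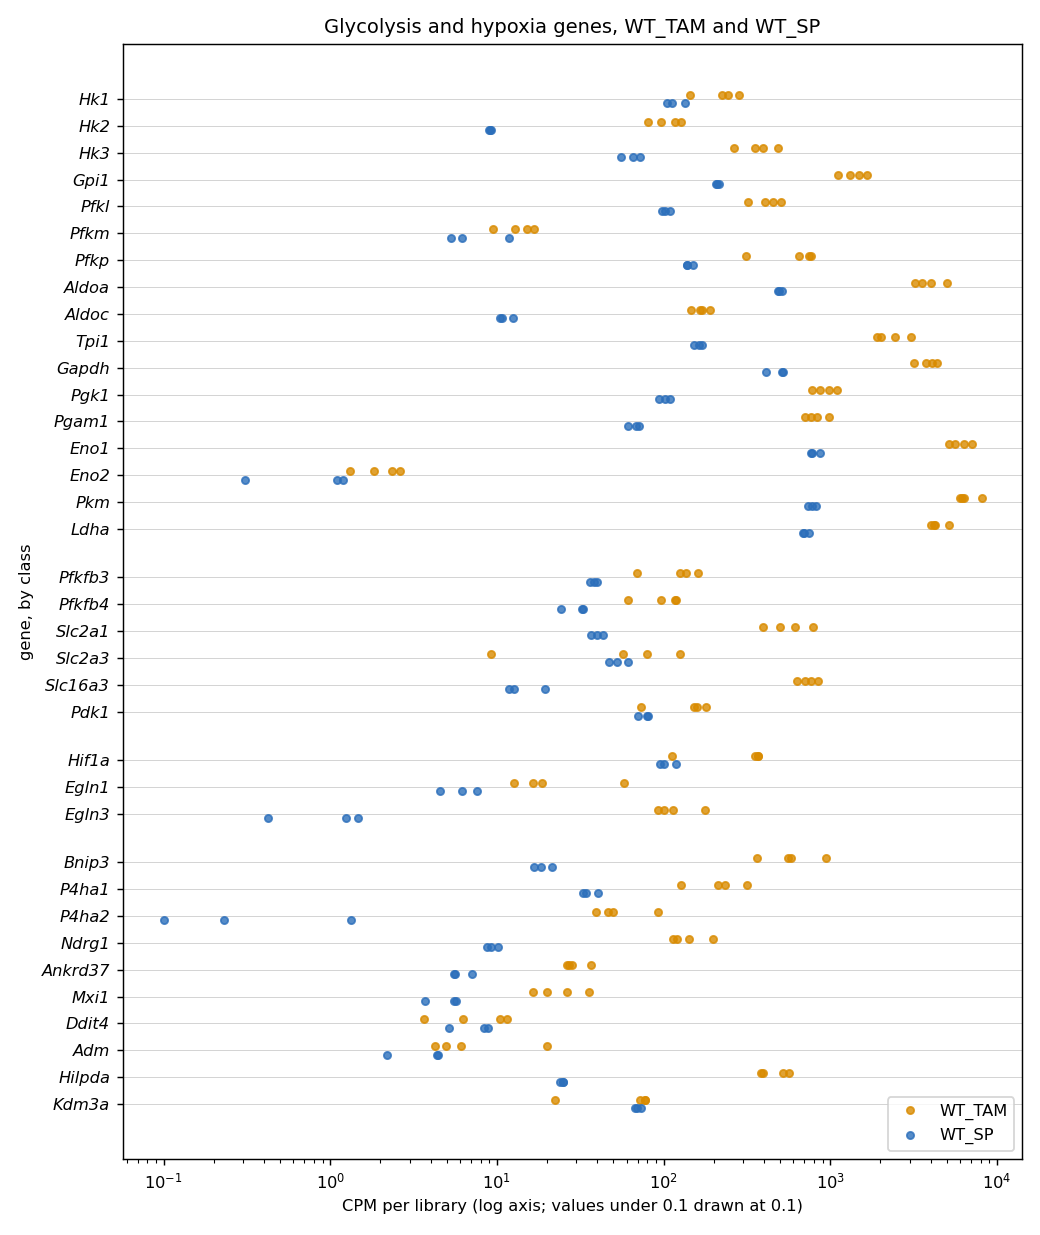
CPM of each member (rows, by class: glycolytic enzymes, regulators and transporters, oxygen sensing, other hypoxia targets) in each library on a log axis, WT_TAM above WT_SP within a row. The WT_TAM points lie to the right of the WT_SP points in 29 of 36 rows; Slc2a3, Ddit4 and Kdm3a overlap around the same level.

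Hexokinases phosphorylate glucose and so trap it in the cell. Hk2, the inducible form, had 126, 117, 97.1 and 81.2 CPM in WT_TAM, against 9.16, 9.11 and 9.02 CPM in WT_SP. The groups were far apart, and the difference was the largest of the family (log2 fold change 3.44 ± 0.20 SE, limma adjusted p = 2.58e-06). Hk3, the form prominent in myeloid cells, had 485, 395, 352 and 266 CPM in WT_TAM and 65.6, 55.6 and 72.004 CPM in WT_SP. Its groups did not overlap either (log2 fold change 2.51 ± 0.23, limma adjusted p = 3.98e-05). Hk1, the form found in most tissues, had 243, 285, 225 and 144 CPM in WT_TAM and 134, 104 and 112.2 CPM in WT_SP. The lowest WT_TAM library, replicate 4, was only just above the highest WT_SP library, and the call (log2 fold change 0.90 ± 0.25, limma adjusted p = 0.0165) was lost without WT_SP replicate 2 (limma adjusted p = 0.0732) or without WT_SP replicate 3 (limma adjusted p = 0.0651). Per kilobase of gene length, Hk3 made up 59.6% ± 3.19 of the reads of these 3 genes in WT_TAM and 37.7% ± 3.22 in WT_SP (SD, n = 4 and 3), while Hk1 made up 30.7% ± 3.43 in WT_TAM and 59.2% ± 3.24 in WT_SP. The most abundant hexokinase transcript was therefore Hk3 in WT_TAM and Hk1 in WT_SP. Hk2 was 9.75% of the family in WT_TAM and 3.10% in WT_SP.

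Gpi1 interconverts glucose and fructose phosphates at the next step. It had 1319.9, 1665, 1115 and 1492 CPM in WT_TAM, against 210.1, 205 and 216 CPM in WT_SP, without overlap (log2 fold change 2.71 ± 0.18, limma adjusted p = 6.52e-06). Phosphofructokinase then commits the sugar to glycolysis, and its liver and platelet forms were the abundant ones. Pfkl had 451, 506, 408 and 319 CPM in WT_TAM and 109.8, 102 and 98.4 CPM in WT_SP. Pfkp had 745, 766, 652 and 311 CPM in WT_TAM and 150.2, 139 and 137 CPM in WT_SP, with WT_TAM replicate 4 less than the other WT_TAM libraries but above every WT_SP library. Both rose by nearly the same amount (log2 fold change 2.00 ± 0.20 for Pfkl and 2.03 ± 0.31 for Pfkp, limma adjusted p = 5.64e-05 and 8.48e-04). Their shares of the 3 phosphofructokinases were close in the 2 groups, at 40.8% in WT_TAM and 40.6% in WT_SP for Pfkl, and at 57.8% in WT_TAM and 56.5% in WT_SP for Pfkp. The muscle form Pfkm was scarce, with 12.9, 15.1, 9.44 and 16.7 CPM in WT_TAM and 11.8, 6.18 and 5.28 CPM in WT_SP. Its groups overlapped and it was not called (log2 fold change 0.82, 95% interval 0.09 to 1.55, limma adjusted p = 0.0636), although it was without WT_SP replicate 1 (limma adjusted p = 0.0210) or WT_TAM replicate 3 (limma adjusted p = 0.0479), and with array weights (0.0114), quantile normalization (0.0399) or the replicate block (0.0249).

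Aldolase splits the sugar and triose phosphate isomerase interconverts the products. Aldoa had 3539.7, 3999, 3211 and 5032 CPM in WT_TAM, against 485, 514 and 492 CPM in WT_SP. Aldoc, the brain type, had 169, 190.5, 165 and 146 CPM in WT_TAM and 10.8, 10.4 and 12.5 CPM in WT_SP. Both were far above WT_SP in every WT_TAM library, with log2 fold changes of 2.97 ± 0.19 for Aldoa and 3.84 ± 0.17 for Aldoc (limma adjusted p = 5.16e-06 and 9.10e-07). Aldoc was a small part of the aldolase reads per kilobase, 3.82% ± 0.854 in WT_TAM and 2.00% ± 0.221 in WT_SP (SD, n = 4 and 3). Tpi1 had 2014, 2444, 1909 and 3047 CPM in WT_TAM and 171, 153 and 163 CPM in WT_SP. With a log2 fold change of 3.83 ± 0.20 (limma adjusted p = 1.84e-06), it stood beside Aldoc at the top of the 17 enzymes.

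The enzymes that handle the triose phosphates rose together. Gapdh, the dehydrogenase often used as a reference transcript, had 3201, 4057, 3736 and 4346 CPM in WT_TAM, against 515, 412 and 524 CPM in WT_SP. Its level was thus 7.93 times as high by the group means, and the groups were apart (log2 fold change 2.99 ± 0.18, limma adjusted p = 3.60e-06). Pgk1, an ATP-forming enzyme, had 779, 1100.2, 867 and 986 CPM in WT_TAM and 109.8, 93.3 and 102 CPM in WT_SP. Pgam1, the phosphoglycerate mutase, had 770.4, 987, 831 and 704 CPM in WT_TAM and 71.1, 61.1 and 68.6 CPM in WT_SP. Neither gene's groups overlapped, and the log2 fold changes were 3.18 ± 0.18 for Pgk1 and 3.60 ± 0.18 for Pgam1 (limma adjusted p = 2.45e-06 and 1.30e-06).

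At the end of the pathway, Eno1, the common enolase, had 5628, 7076, 5179.7 and 6362 CPM in WT_TAM and 866, 780.1 and 770.3 CPM in WT_SP. The neuronal enolase Eno2 was near the detection limit, with 2.62, 2.35, 1.84 and 1.31 CPM in WT_TAM and 1.198, 0.309 and 1.10 CPM in WT_SP. Eno1 was apart between the groups and rose (log2 fold change 2.90 ± 0.17, limma adjusted p = 3.19e-06), whereas Eno2, which was also apart, was not called (log2 fold change 0.93 ± 0.35, limma adjusted p = 0.0549) with the settings used throughout. Eno2 was called without WT_TAM replicate 4 (limma adjusted p = 0.0155). It was also called with the replicate block (limma adjusted p = 0.0204), in which that library has no WT_SP partner and adds nothing to the difference. With all libraries contributing, Eno2 was called with array weights (0.0100), quantile normalization (0.0326) or 2 CPM added before the logarithm (0.0496). Pkm, the pyruvate kinase, had 6322, 8093, 6194 and 6009.6 CPM in WT_TAM and 825, 733 and 781 CPM in WT_SP. Ldha, the lactate-forming subunit of lactate dehydrogenase, had 4214, 5149, 4264 and 4015 CPM in WT_TAM and 744, 689.7 and 695 CPM in WT_SP. Both were higher in all WT_TAM libraries, by log2 fold changes of 3.08 ± 0.17 for Pkm and 2.63 ± 0.16 for Ldha (limma adjusted p = 2.35e-06 and 3.91e-06).

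Compared per kilobase of gene length, the 5 most abundant enzymes stood in the same order at both sites. In WT_TAM the level was 3749 ± 429 CPM per kilobase for Ldha, 3478 ± 478 for Eno1, 2998 ± 384 for Gapdh, 2981 ± 433 for Pkm and 2686 ± 539.9 for Aldoa (SD, n = 4). In WT_SP it was 603 ± 25.3 for Ldha, 462 ± 30.1 for Eno1, 378 ± 48.8 for Gapdh, 349 ± 20.6 for Pkm and 338 ± 10.3 for Aldoa (SD, n = 3). Neighbours in the WT_TAM order differed by less than the sum of their SDs. In WT_SP this held for Gapdh, Pkm and Aldoa, while Ldha was above Eno1 and Eno1 above Gapdh by more than that. Together the 17 enzymes took 2.66% to 3.05% of the reads of a WT_TAM library and 0.496% to 0.539% of those of a WT_SP library. This share does not depend on the authors' factors.

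**Figure D2:**
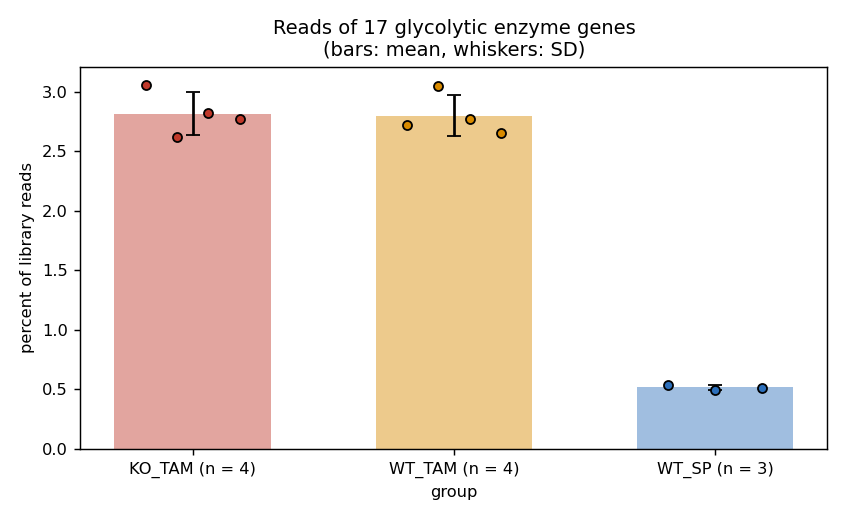
Percent of all reads of a library that fell in the 17 glycolytic enzyme genes, for KO_TAM, WT_TAM and WT_SP (points: libraries; bars: group mean; whiskers: SD). KO_TAM libraries lie between 2.62% and 3.06%, WT_TAM libraries between 2.66% and 3.05%, and WT_SP libraries between 0.496% and 0.539%.

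Transporters and regulators showed a wider range. Slc16a3, the lactate exporter MCT4, had 708, 843, 631 and 772 CPM in WT_TAM, against 19.4, 12.7 and 11.8 CPM in WT_SP. The group means differed by 50.5 times (log2 fold change 5.64 ± 0.21, limma adjusted p = 5.62e-07), more than for any of the 17 glycolytic enzymes. Slc2a1, the glucose importer GLUT1, had 611, 793, 499 and 396 CPM in WT_TAM and 43.3, 36.8 and 40.1 CPM in WT_SP, without overlap (log2 fold change 3.78 ± 0.24, limma adjusted p = 5.54e-06). Slc2a3, the high-affinity importer GLUT3, had 126, 79.5, 56.7 and 9.18 CPM in WT_TAM and 61.3, 47.2 and 52.7 CPM in WT_SP. The WT_TAM libraries ranged on both sides of the WT_SP libraries, with replicate 4 far below the rest, and no difference was called (log2 fold change -0.15, 95% interval -1.86 to 1.56, limma adjusted p = 0.889). Without WT_TAM replicate 4 the value was 0.63 (limma adjusted p = 0.0760). Of the reads per kilobase of these 2 importers, Slc2a1 took 93.2% ± 4.38 in WT_TAM and 52.5% ± 1.29 in WT_SP (SD, n = 4 and 3).

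The bifunctional enzymes Pfkfb3 and Pfkfb4 set the level of the sugar bisphosphate that activates phosphofructokinase. Pfkfb3 had 161, 126, 136 and 69.3 CPM in WT_TAM and 36.3, 38.4 and 39.8 CPM in WT_SP. Pfkfb4 had 117, 119, 96.2 and 61.3 CPM in WT_TAM and 32.2, 24.3 and 32.8 CPM in WT_SP. Both were lowest in replicate 4 among the WT_TAM libraries and still apart from WT_SP, with log2 fold changes of 1.61 ± 0.28 for Pfkfb3 and 1.67 ± 0.26 for Pfkfb4 (limma adjusted p = 0.00159 and 9.16e-04). Pdk1, which inhibits pyruvate dehydrogenase and so keeps pyruvate out of the mitochondria, had 152, 181, 159 and 73.3 CPM in WT_TAM and 80.5, 79.9 and 70.4 CPM in WT_SP. WT_TAM replicate 4 fell among the WT_SP libraries, and Pdk1 was not called (log2 fold change 0.80 ± 0.30, limma adjusted p = 0.0584) with the settings used throughout. It was called without that library (1.09, limma adjusted p = 4.62e-06) and with the replicate block, in which that library has no WT_SP partner and adds nothing to the difference (1.38e-05). With all libraries contributing it was called with array weights (3.50e-06), 1 fit of the 3 groups (0.0219) or quantile normalization (0.0417).

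Among the genes of oxygen sensing, Egln3 had the largest fold change of all members with 0.5 CPM added, although P4ha2 exceeded it with 0.1 CPM added, with array weights and without WT_SP replicate 1, and Slc16a3 with 2 CPM added. It encodes a HIF prolyl hydroxylase that is itself induced by hypoxia, and it had 92.8, 177, 100.5 and 114 CPM in WT_TAM, against 0.423, 1.47 and 1.25 CPM in WT_SP. The lowest WT_TAM library was far above the highest WT_SP library (log2 fold change 6.32 ± 0.33, limma adjusted p = 1.84e-06). Egln1, the main HIF prolyl hydroxylase in normal oxygen, had 12.6, 18.7, 16.5 and 57.9 CPM in WT_TAM and 4.58, 6.18 and 7.63 CPM in WT_SP. It was apart between the groups and highest in WT_TAM replicate 4, and its call (log2 fold change 1.78 ± 0.48, limma adjusted p = 0.0151) was lost without WT_SP replicate 1 (limma adjusted p = 0.0643). Egln3 made up 89.8% ± 7.29 of the reads per kilobase of these 2 hydroxylases in WT_TAM and 23.3% ± 8.12 in WT_SP (SD, n = 4 and 3). Hif1a, which encodes the regulated subunit of the factor, had 369, 371, 356 and 112.1 CPM in WT_TAM and 101, 119 and 95.1 CPM in WT_SP. In 3 WT_TAM libraries it was well above WT_SP and in replicate 4 it was within the WT_SP range. Its call (log2 fold change 1.37 ± 0.41, limma adjusted p = 0.0244) was lost when any 1 library other than WT_TAM replicate 4 was left out (limma adjusted p = 0.0583 to 0.0846).

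The other hypoxia targets include genes for mitophagy, lipid droplets and collagen modification. Bnip3, a mitophagy receptor, had 555, 945, 585 and 366 CPM in WT_TAM, against 18.4, 21.3 and 16.7 CPM in WT_SP. Hilpda, a lipid droplet protein that restrains lipolysis, had 395, 564, 383 and 521 CPM in WT_TAM and 24.0, 24.9 and 25.0 CPM in WT_SP. Every WT_TAM library was far above every WT_SP library for both genes, with log2 fold changes of 4.91 ± 0.30 for Bnip3 and 4.19 ± 0.19 for Hilpda (limma adjusted p = 3.74e-06 and 9.48e-07). P4ha1, the usual catalytic subunit of collagen prolyl hydroxylase, had 234, 318, 212 and 128 CPM in WT_TAM and 40.5, 32.9 and 34.0 CPM in WT_SP. P4ha2, the other catalytic subunit, had 46.7, 93.1, 39.5 and 50.004 CPM in WT_TAM, against 1.34, 0.232 and 0 CPM in WT_SP. P4ha2 was close to absent in WT_SP, so that its log2 fold change of 5.96 ± 0.47 depends on the 0.5 CPM added before the logarithm (limma adjusted p = 1.73e-05), and P4ha1 rose less (log2 fold change 2.55 ± 0.29, limma adjusted p = 1.50e-04). P4ha2 made up 29.7% of the reads per kilobase of this pair in WT_TAM and 2.07% in WT_SP. Fibroblasts are the typical source of collagen, and their markers, given above, were higher in WT_TAM; their part in the P4ha1 and P4ha2 values was not tested.

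Ndrg1, a stress-induced protein, had 113, 197, 141 and 120.0 CPM in WT_TAM and 8.74, 9.19 and 10.1 CPM in WT_SP. Ankrd37, an ankyrin repeat protein, had 26.9, 26.4, 28.1 and 36.9 CPM in WT_TAM and 5.57, 5.56 and 7.11 CPM in WT_SP. Mxi1, an antagonist of MYC, had 16.5, 19.9, 26.4 and 35.7 CPM in WT_TAM and 5.50, 3.71 and 5.72 CPM in WT_SP. None of these 3 overlapped between the groups, and they rose with log2 fold changes of 3.83 for Ndrg1, 2.19 for Ankrd37 and 2.16 for Mxi1 (limma adjusted p = 3.06e-06, 4.79e-05 and 4.77e-04). The remaining 3 hypoxia targets were not called. Ddit4, an inhibitor of mTOR complex 1, had 3.63, 10.4, 6.29 and 11.5 CPM in WT_TAM and 8.88, 5.17 and 8.36 CPM in WT_SP. Adm, the vasodilator adrenomedullin, had 4.98, 20.1, 6.12 and 4.26 CPM in WT_TAM and 2.19, 4.40 and 4.40 CPM in WT_SP, with WT_TAM replicate 2 above all others. Kdm3a, a histone demethylase, had 76.9, 72.7, 77.3 and 22.5 CPM in WT_TAM and 67.3, 69.1 and 73.2 CPM in WT_SP. The groups overlapped in all 3, and the 95% intervals of the log2 fold change were -0.91 to 0.91 for Ddit4, -0.23 to 2.12 for Adm and -1.27 to 0.63 for Kdm3a (limma adjusted p = 0.999, 0.164 and 0.567).

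The sequence just before the start of these genes was examined for the core of the hypoxia response element, to which HIF binds. The windows are RefSeq promoter entries of build GRCm38.p6, from 250 bases before to 50 bases after the start, and 34 members have one. Searching both strands for ACGTG or GCGTG found at least 1 match in 31 of these 34 members (91.2%), against 46.7% of 27025 genes in the promoter table and 66.1% of 10092 genes tested in the site comparison. It was found in 26 of 28 members that were called higher and in 5 of 6 that were not. Members have more entries per gene (mean 1.53, against 1.22 over the table and 1.28 over the genes tested). Their G and C content, taken for each gene from its entry with the highest value, is also higher (median 65.5%, against 53.3% over the table and 61.7% over the genes tested). More entries per gene can raise such a highest value. The part of these differences in the share was not tested. The 250 bases before the start are shown for Slc16a3, Bnip3, P4ha2 and Pgk1, which rose and hold the motif, for Gpi1, which rose and does not, and for Ddit4, which holds it and was not called. They read 5′ to 3′ on the gene's strand, and capitals mark the motif on either strand, where CACGT and CACGC are its reverse complements and overlapping matches run together.
Slc16a3, chr11:120948817-120949066, plus strand: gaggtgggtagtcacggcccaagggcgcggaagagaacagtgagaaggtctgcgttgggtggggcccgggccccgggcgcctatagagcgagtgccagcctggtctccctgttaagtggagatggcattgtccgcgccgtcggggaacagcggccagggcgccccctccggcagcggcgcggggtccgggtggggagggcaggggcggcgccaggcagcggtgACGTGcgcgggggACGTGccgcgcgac
Bnip3, chr7:138909507-138909756, minus strand: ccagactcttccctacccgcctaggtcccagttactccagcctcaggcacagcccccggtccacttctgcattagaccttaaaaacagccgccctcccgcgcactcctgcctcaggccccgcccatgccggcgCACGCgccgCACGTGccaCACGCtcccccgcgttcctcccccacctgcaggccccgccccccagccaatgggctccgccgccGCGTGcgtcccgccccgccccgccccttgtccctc
P4ha2, chr11:54100674-54100923, plus strand: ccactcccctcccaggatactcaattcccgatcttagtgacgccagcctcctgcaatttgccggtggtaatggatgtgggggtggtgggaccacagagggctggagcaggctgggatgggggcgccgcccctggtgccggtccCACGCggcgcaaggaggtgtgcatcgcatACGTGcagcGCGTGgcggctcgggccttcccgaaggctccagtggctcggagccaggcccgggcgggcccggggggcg
Pgk1, chrX:106186850-106187099, plus strand: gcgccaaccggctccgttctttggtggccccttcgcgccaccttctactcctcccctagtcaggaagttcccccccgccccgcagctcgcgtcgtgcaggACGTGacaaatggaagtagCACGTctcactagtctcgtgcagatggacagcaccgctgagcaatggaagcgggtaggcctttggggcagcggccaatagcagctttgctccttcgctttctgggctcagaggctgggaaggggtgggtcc
Gpi1, chr7:34230337-34230586, minus strand: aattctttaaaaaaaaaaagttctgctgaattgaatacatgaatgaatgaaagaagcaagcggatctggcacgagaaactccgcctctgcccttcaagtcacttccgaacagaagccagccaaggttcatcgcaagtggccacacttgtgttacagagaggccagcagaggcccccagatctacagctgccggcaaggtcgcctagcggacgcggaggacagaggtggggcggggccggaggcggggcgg
Ddit4, chr10:59951771-59952020, minus strand: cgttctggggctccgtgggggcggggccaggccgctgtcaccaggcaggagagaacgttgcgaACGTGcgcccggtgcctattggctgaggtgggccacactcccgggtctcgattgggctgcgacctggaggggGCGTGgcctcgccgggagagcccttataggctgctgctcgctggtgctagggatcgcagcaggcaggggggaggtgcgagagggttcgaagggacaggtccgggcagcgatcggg
The stretch shown holds 2 matches close to the start in Slc16a3, 5 counted on both strands in Bnip3, and 3 in P4ha2. In Bnip3, CACGTG reads the same on both strands and is also the E-box bound by other factors. The Pgk1 and Ddit4 stretches hold 2 matches each, so that the motif was present in a gene that rose and in a gene that was not called.

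Other genes of the pathway, listed whatever their values but with earlier results of these data known, differed by group. Over all genes tested, 22.6% were called higher and 24.1% lower. Of 28 further hypoxia targets tested, 20 were higher in WT_TAM and 1 was lower, with a median log2 fold change of 2.23. Vegfa, the angiogenic growth factor, had 229 ± 60.1 CPM in WT_TAM and 1.63 ± 0.686 CPM in WT_SP (mean ± SD, n = 4 and 3), a log2 fold change of 6.77 (limma adjusted p = 7.60e-07). Pgf, a related growth factor, and Ak4, a mitochondrial adenylate kinase, rose by 5.07 and 4.64 on the log2 scale (limma adjusted p = 3.95e-05 and 7.65e-05). Bhlhe41, a transcriptional repressor, was the 1 that fell (log2 fold change -1.12, limma adjusted p = 0.0327). This list behaved like the members in direction, as did the transporters of glucose and lactate, of which 5 of 7 tested were higher and 0 were lower. They included Bsg, the chaperone of the lactate exporters (2.09, limma adjusted p = 2.92e-05), Slc2a6 (1.41, limma adjusted p = 0.00121) and Slc37a2 (1.37, limma adjusted p = 0.00658).

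Branches of the pathway moved in part, beside 22.6% of all genes tested that were called higher and 24.1% that were called lower. Of 10 glycogen genes 6 were higher and 1 was lower; glycogen synthase Gys1 (2.31, limma adjusted p = 1.66e-04) and glycogen phosphorylase Pygl (2.24, limma adjusted p = 2.46e-04) rose, and so did the phosphoglucomutase Pgm2 (2.07, limma adjusted p = 8.21e-05). The brain-type phosphorylase Pygb was the 1 that fell (-0.77, limma adjusted p = 0.00484). Of 7 pentose phosphate genes 3 were higher, led by Pgd, a NADPH-forming dehydrogenase (2.03, limma adjusted p = 2.98e-05), with Tkt (0.82) and G6pdx (0.59) behind it. Of 11 genes of pyruvate dehydrogenase, its kinases and the pyruvate carrier, 2 were called, both higher. They were the carrier subunit Mpc1 (0.85, limma adjusted p = 0.0202) and the kinase Pdk3 (0.60, limma adjusted p = 0.0303). This count is near the share called higher over all genes, so it marks nothing particular to these genes. Isoforms of glycolysis and gluconeogenesis outside the members were called in both directions, 2 higher and 4 lower of 10 tested. Bpgm, Pklr and Pgam2, an erythroid mutase, the liver and red cell pyruvate kinase and the muscle mutase, fell by 1.70, 1.55 and 1.34 on the log2 scale (limma adjusted p = 0.00518, 0.0282 and 0.0318). The 7 erythroid markers fell with them, at 172 to 772 CPM in WT_TAM and 995 to 4752 CPM in WT_SP, and their part in those 3 genes was not tested. Of 7 other genes of oxygen sensing, Epas1, another HIF alpha subunit, was higher (1.05, limma adjusted p = 0.0142) and Siah1a, a ubiquitin ligase, was lower (-1.07, limma adjusted p = 0.00753).

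The second comparison asked whether Cre-mediated loss of Sin1 in myeloid cells changed these genes in tumor macrophages. No glycolytic or hypoxia transcript was called in either direction: 0 of the 36 members and 0 of the 12830 genes tested (0.0%; lowest limma adjusted p = 0.102). At an unadjusted p under 0.05 there were 2353 genes (18.3%) and 6 of the 36 members. Log2 fold changes had a median of 0.00 over the members (range -0.91 to 2.04) and 0.01 over all genes tested, with 18 members above 0 and 18 below. By class it was -0.05 for the 17 enzymes and 0.05 for the other 19 members. The groups did not overlap for 2 members above WT_TAM, Slc2a3 and Hif1a, and for 2 below it, Pfkm and Aldoc; over all genes tested, 6.39% lay apart above and 8.67% below. The 2 comparisons share the 4 WT_TAM libraries.

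**Figure D3:**
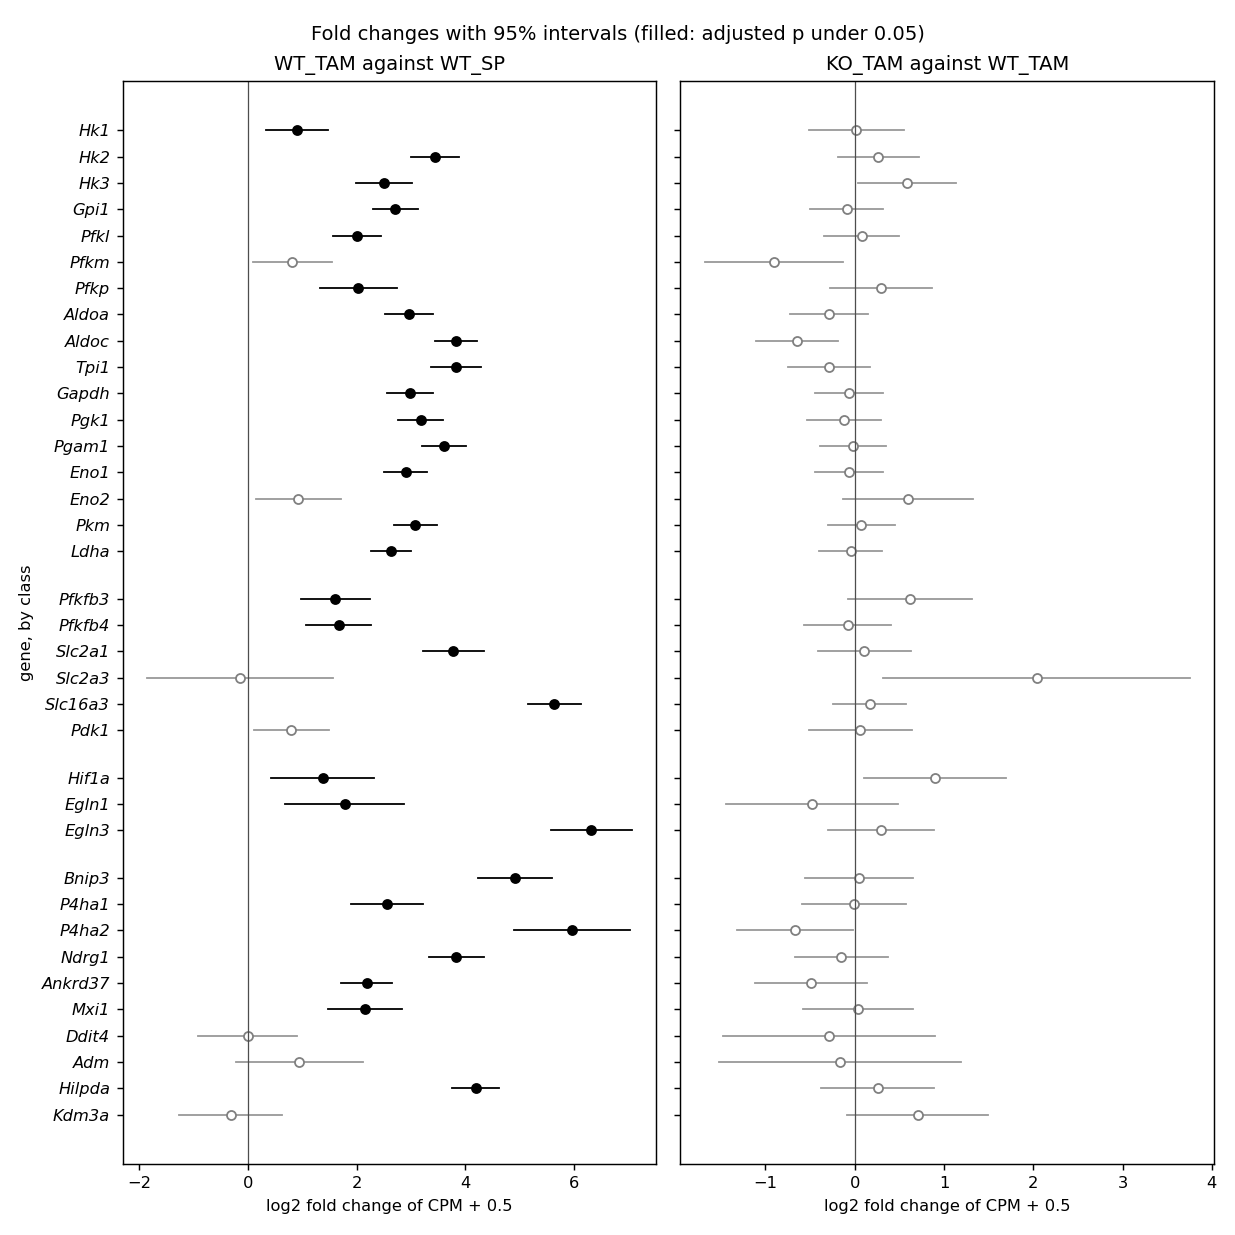
Log2 fold change of CPM plus 0.5 for each member (rows, by class) with its 95% interval, WT_TAM against WT_SP on the left and KO_TAM against WT_TAM on the right. Filled points have a limma adjusted p under 0.05, 29 on the left and 0 on the right, and the 2 axes differ in scale.

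For the abundant enzymes the intervals were narrow. Gapdh had 3459, 2935, 3371 and 3207 CPM in KO_TAM, against 2778, 3514, 3298 and 4109 CPM in WT_TAM. Ldha had 4207, 3569, 3824 and 3559 CPM in KO_TAM and 3657, 4459, 3765 and 3795 CPM in WT_TAM. Eno1 had 5795, 4877, 4996 and 4877 CPM in KO_TAM and 4884, 6128, 4573 and 6014 CPM in WT_TAM. In each, the groups overlapped around the same level, and the 95% interval of the log2 fold change ran from -0.45 to 0.32 for Gapdh, from -0.40 to 0.30 for Ldha and from -0.44 to 0.31 for Eno1 (limma adjusted p = 0.848, 0.885 and 0.853). Of the other enzymes outside the families below, Gpi1, Tpi1, Pgk1, Pgam1 and Pkm had log2 fold changes between -0.29 and 0.07. As a share of all reads, the 17 enzymes took 2.62% to 3.06% in KO_TAM and 2.66% to 3.05% in WT_TAM, so that the ranges nearly coincided.

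Among the hexokinases, Hk3 had 588, 649.9, 438 and 338 CPM in KO_TAM, against 421, 342, 310.4 and 252 CPM in WT_TAM. Hk2 had 134, 126, 110.3 and 82.0 CPM in KO_TAM and 109.7, 101, 85.8 and 76.7 CPM in WT_TAM, and Hk1 had 261, 214, 175 and 152 CPM in KO_TAM and 211, 246, 198 and 136 CPM in WT_TAM. All 3 overlapped between the genotypes, and the log2 fold changes were 0.58 for Hk3, 0.26 for Hk2 and 0.02 for Hk1 (limma adjusted p = 0.257, 0.489 and 0.972). Per kilobase, Hk3 made up 65.5% to 71.6% of the family in KO_TAM and 55.8% to 63.2% in WT_TAM, and Hk1 made up 20.4% to 25.4% in KO_TAM and 27.4% to 34.7% in WT_TAM. The ranges of these 2 shares did not overlap, a description of a quantity singled out after its values were seen and not tested.

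Of the phosphofructokinases, Pfkm had 8.16, 2.79, 7.94 and 7.23 CPM in KO_TAM, against 11.2, 13.1, 8.34 and 15.8 CPM in WT_TAM. Every KO_TAM library was below every WT_TAM library at these low levels (log2 fold change -0.91 ± 0.35, unadjusted p = 0.0263 and limma adjusted p = 0.228), and without KO_TAM replicate 2 the value was -0.57. Pfkl had 472, 421, 342 and 339.7 CPM in KO_TAM and 391, 438, 360.0 and 302 CPM in WT_TAM, and Pfkp had 692, 607, 649.6 and 597 CPM in KO_TAM and 646, 663, 575 and 294 CPM in WT_TAM. Both overlapped between the genotypes (limma adjusted p = 0.841 and 0.543). Of the aldolases, Aldoc had the smallest p of the members, with 109.9, 69.2, 85.5 and 124 CPM in KO_TAM and 147, 165, 145 and 138 CPM in WT_TAM. All 4 KO_TAM libraries were below all 4 WT_TAM libraries (log2 fold change -0.65 ± 0.21, unadjusted p = 0.0101), but the adjusted value missed the threshold (limma adjusted p = 0.175). With limma array weights, which give less weight to deviating libraries, Aldoc was called lower (log2 fold change -0.59, limma adjusted p = 0.0454), as were 1.83% of all genes. Aldoa had 3142, 2485, 2833 and 2878 CPM in KO_TAM and 3072, 3464, 2835 and 4757 CPM in WT_TAM, with overlapping groups. Eno2 had 3.73, 3.51, 3.51 and 1.499 CPM in KO_TAM and 2.27, 2.04, 1.62 and 1.24 CPM in WT_TAM, a log2 fold change of 0.60 ± 0.33 at the edge of detection (limma adjusted p = 0.34).

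The largest log2 fold change of a member between the genotypes belonged to Slc2a3, which had 122, 648, 109.8 and 114 CPM in KO_TAM, against 109, 68.8, 50.1 and 8.68 CPM in WT_TAM. All KO_TAM libraries were above all WT_TAM libraries, though 3 of them only just, and KO_TAM replicate 2 stood far above the rest as WT_TAM replicate 4 stood far below. The log2 fold change of 2.04 ± 0.77 (unadjusted p = 0.0245, limma adjusted p = 0.225) was 1.41 without KO_TAM replicate 2, 1.29 without WT_TAM replicate 4 and 0.67 without both. Slc2a3 is strongly expressed in neutrophils, and the sum of 10 neutrophil markers was 277 to 954 CPM in KO_TAM, highest in replicate 2, and 111 to 206 CPM in WT_TAM. Ly6g, whose product was sorted against, and Camp were under 1 CPM in every KO_TAM and WT_TAM library. The 4 neutrophil markers that could be tested all had log2 fold changes above 0 (median 1.43), and 0 were called. The part of these markers in the Slc2a3 values was not tested. Slc2a1 had 704, 498, 541 and 427 CPM in KO_TAM and 531, 687, 441 and 374 CPM in WT_TAM, overlapping throughout (log2 fold change 0.11, 95% interval -0.41 to 0.63, limma adjusted p = 0.819). Of this pair's reads per kilobase, Slc2a3 made up 10.5% to 46.8% in KO_TAM and 1.55% to 12.2% in WT_TAM.

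Pfkfb3 had 167, 241, 177 and 94.1 CPM in KO_TAM, against 139.5, 109, 119.9 and 65.6 CPM in WT_TAM. Pfkfb4 had 94.97, 67.2, 84.7 and 76.4 CPM in KO_TAM and 102, 103, 84.9 and 58.0 CPM in WT_TAM. The groups overlapped for both, and the log2 fold changes were 0.62 ± 0.31 for Pfkfb3 and -0.08 ± 0.22 for Pfkfb4 (limma adjusted p = 0.315 and 0.861). Hif1a had 494, 594, 422 and 335 CPM in KO_TAM and 319.9, 321, 314 and 106 CPM in WT_TAM. Every KO_TAM library was above every WT_TAM library, most closely at the lowest KO_TAM library, and WT_TAM replicate 4 was far below the other 3. The log2 fold change of 0.90 ± 0.36 (unadjusted p = 0.0309, limma adjusted p = 0.24) was 0.50 without WT_TAM replicate 4. Egln3 had 177, 107, 151 and 92.9 CPM in KO_TAM and 80.5, 154, 88.7 and 108 CPM in WT_TAM, and Egln1 had 15.1, 12.6, 18.2 and 10.5 CPM in KO_TAM and 10.9, 16.2, 14.6 and 54.7 CPM in WT_TAM. Both overlapped between the genotypes, and the high Egln1 value was that of WT_TAM replicate 4 (limma adjusted p = 0.556 and 0.553).

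Among the other hypoxia targets, P4ha2 had 39.5, 25.3, 37.3 and 22.0 CPM in KO_TAM, against 40.5, 80.6, 34.9 and 47.3 CPM in WT_TAM. The groups overlapped at their edges (log2 fold change -0.67 ± 0.29, unadjusted p = 0.0441, limma adjusted p = 0.263). The 7 fibroblast markers summed to 30.6 to 237 CPM in KO_TAM and 389 to 858 CPM in WT_TAM, in the same direction as P4ha2, and their part in it was not tested. Kdm3a had 87.5, 103, 75.8 and 64.5 CPM in KO_TAM and 66.8, 63.0, 68.2 and 21.2 CPM in WT_TAM, and Ankrd37 had 21.3, 11.4, 28.6 and 16.5 CPM in KO_TAM and 23.4, 22.8, 24.8 and 34.9 CPM in WT_TAM. The groups overlapped for both, at the lowest KO_TAM library for Kdm3a and the highest KO_TAM library for Ankrd37, while WT_TAM replicate 4 was far below the other WT_TAM libraries for Kdm3a and above them for Ankrd37 (limma adjusted p = 0.314 and 0.357). Of the hypoxia targets that were higher in WT_TAM than in WT_SP, Bnip3, Hilpda, P4ha1, Ndrg1 and Mxi1 had log2 fold changes between -0.15 and 0.26, with limma adjusted p between 0.626 and 0.984.

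**Figure D4:**
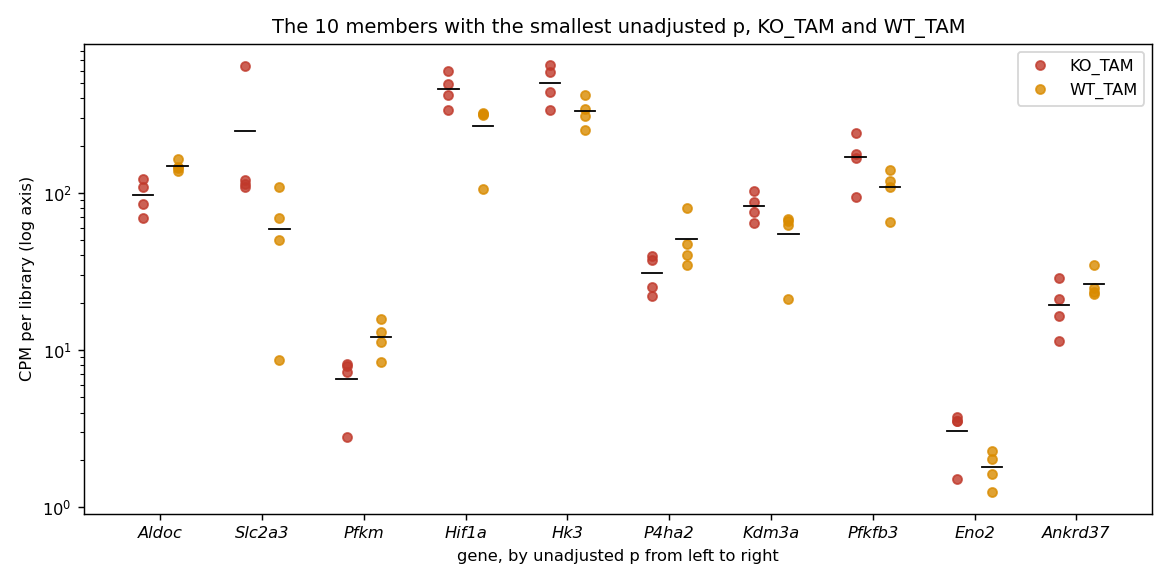
CPM in each library, on a log axis, of the 10 members with the smallest unadjusted p between KO_TAM (left of each pair) and WT_TAM (right); points are libraries and short lines are group means. Slc2a3 and Hif1a lie above WT_TAM and Pfkm and Aldoc below it without overlap, and the single low WT_TAM point of Slc2a3, Hif1a and Kdm3a is replicate 4.

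**Figure D5:**
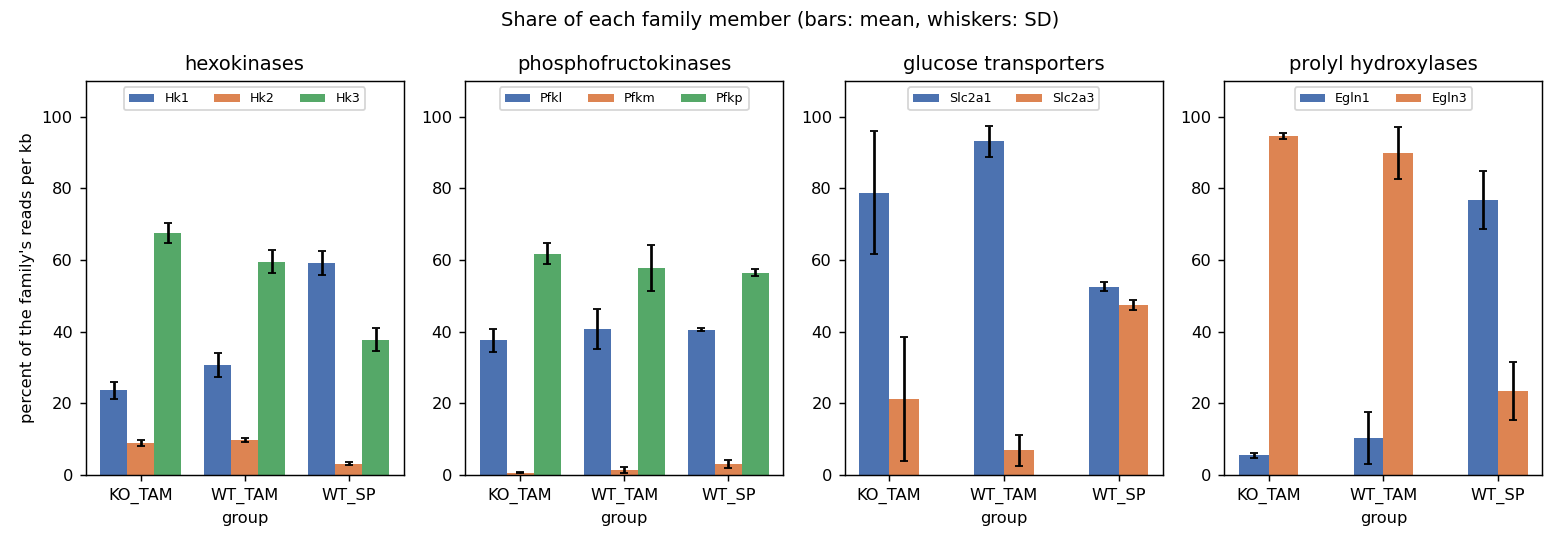
Mean share of each gene in the reads per kilobase of its family, for hexokinases, phosphofructokinases, glucose transporters and HIF prolyl hydroxylases, in KO_TAM, WT_TAM and WT_SP (whiskers: SD). Hk3, Slc2a1 and Egln3 hold the largest share in both tumor groups, and in WT_SP Hk1 and Egln1 do so while the 2 glucose transporters are nearly equal.

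Other parts of the pathway were not called between the genotypes either. Of 28 further hypoxia targets tested 0 were called, with a median log2 fold change of -0.05, and 4 had an unadjusted p under 0.05. The sum of the 9 mitochondrially encoded genes was 3830 to 15837 CPM in KO_TAM and 9679 to 60872 CPM in WT_TAM, and the macrophage markers summed to 6693 to 8369 CPM in KO_TAM and 9162 to 18771 CPM in WT_TAM. The macrophage sum does not hold for each gene. Of the 9 markers, 3 had log2 fold changes above 0 and 6 below (median -0.08, range -1.29 to 0.85), and 0 were called. The part of the mitochondrial genes and macrophage markers in the members' values was not tested. Exons of 15 of the 36 members overlap another annotated gene, and whether reads were counted by strand is not stated in the labels. Ankrd37 with Ufsp2, Pfkm with Senp1, Pfkp with Pitrm1, Gapdh with Iffo1 and Tpi1 with Spsb2 are among the pairs on opposite strands. For these, reads of the overlap can be assigned to a single gene only if they were counted by strand. Hif1a with Gm49321, Pfkm with Gm26513 and Pkm with Gm49759 overlap on the same strand, where counting by strand does not separate them. Gapdh and several other glycolytic genes also have processed copies elsewhere in the genome, so that their counts are uncertain to the extent that reads were shared.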

How the data were processed

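RNA was sequenced in 11 libraries in 3 groups, KO_TAM (4), WT_TAM (4) and WT_SP (3), taken from the sample titles. The submitters' processing notes name mm10 as the build and, among tools, HTSeq, DESeq2, SAMtools, TopHat2, HISAT and HISAT2. Their versions and roles, the annotation and the strand setting are not given in those notes or the labels.

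Deposited by the authors were 2 tables whose values are not counts but a score: reads divided by gene length and by a scaled library total, then multiplied by a factor cycled down the rows, with genes lacking a length divided by -1. This was read from the deposited values, as no header states it. Whole reads were recovered from their steps (within 0.0002 reads, or a share of 2e-08). They made up 99.4% to 100% of the totals, and 35 genes with 99 values that were not whole were left out of the genotype table. None was a member. No column of samples was left unused (0). Intervals on reads were not needed, and precision is given as the spread between libraries.

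Because the unit is not counts, edgeR was not used. The model, limma 3.58.1 under R 4.3.3 (trend, robust), was fitted to log2(CPM + 0.5), each table on its own, two-sided, with Benjamini-Hochberg adjustment over all genes tested and a threshold of 0.05. A gene was kept where its CPM reached that of 10 reads in a library of median total, in as many libraries as the smaller group holds, and 15 reads in all. On simulated data, 100% of genes changed by 1 or 2 on the log2 scale were recovered, with 7 false calls of 13923 genes (site) and 8 of 12686 (genotype). The simulation gave every gene the same dispersion, held no deviating library and changed no gene of low level. It checks the procedure and does not measure what the real libraries could detect. Between the genotypes of the real data, Slc2a3 at a log2 fold change of 2.04 was not called. Lengths were those implied by the tables, and positions and exon overlaps came from GENCODE M21 (GRCm38).

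The members, lists and alternatives were chosen with earlier results of these data known, so no test over a list was made. Values per library are printed for called members with an absolute log2 fold change of at least 1 and for the hexokinase, phosphofructokinase, PFKFB, aldolase, enolase, glucose transporter and EGLN families, Hif1a, Gapdh and Ldha. In the genotype comparison they are printed for these families and genes and for the 10 members with the smallest p. Pdk1, Ddit4, Adm and Kdm3a between the sites were added because they were not called. From each further list up to 3 called genes with the largest change are named, and Pygb and Bhlhe41 were added after their values were seen, each as the only gene of its list that fell.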

Additional observations from a re-analysis of the deposited data

Results flagged for a closer look

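In the groups of 4 libraries of the genotype table, the highest or lowest library of a member was compared with the gap to its nearest neighbour (Dixon's test at 95%). Of 72 such groups 9 stood out, where the nominal rate is about 1 in 20. The share over all genes was not computed, and genes of the same library are not independent. The count is therefore not a result about the members. WT_TAM replicate 4 accounted for 4 of them. Against the other WT_TAM libraries it was lowest for Hif1a, at 106 CPM with the nearest at 314 CPM, and for Kdm3a, at 21.2 CPM with the nearest at 63.0 CPM. It was highest for Egln1, at 54.7 CPM with the nearest at 16.2 CPM, and for Ankrd37, at 34.9 CPM with the nearest at 24.8 CPM. This is the library with the fewest reads, 7639550.

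KO_TAM replicate 2 had 648 CPM of Slc2a3, with the nearest KO_TAM library at 122 CPM. KO_TAM replicate 1 was highest for Eno1, at 5795 CPM with the nearest at 4996 CPM, and KO_TAM replicate 4 was lowest for Eno2, at 1.499 CPM with the nearest at 3.51 CPM. WT_TAM replicate 2 was highest for Pkm, at 7008 CPM with the nearest at 5681 CPM, and for Adm, at 17.4 CPM with the nearest at 5.40 CPM. The causes were not tested.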

How the results depend on the processing

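Between the sites, the number of members higher in WT_TAM was 29 and stayed between 27 and 34 under every alternative, with 0 lower. It was 27 to 31 when 1 library was left out, while the number of genes called was 5045 to 9213. Between the genotypes, 0 members and 0 genes were called, but the number of genes called was 373 with array weights, 98 without the filter on low reads, 83 with 1 fit of all 3 groups and 65 without both WT_TAM replicate 4 and KO_TAM replicate 2. The number of members called lower was 1 with array weights, and it was Aldoc. With the same-numbered libraries as a replicate block, 34 members were higher between the sites (gaining Pfkm, Eno2, Slc2a3, Pdk1 and Adm) of 9161 genes called, and 0 genes were called between the genotypes. The labels do not say whether the same number marks a pair. Correlations of same-numbered deviations from the group means were 0.000841, -0.0934 and 0.0993 between the sites. Between the genotypes they were 0.0449, 0.112, -0.162 and 0.198. Differently numbered libraries gave -0.102 to 0.159 between the sites and -0.319 to 0.295 between the genotypes. With deviations from means of so few libraries, these values cannot show whether the libraries were paired. The block is therefore given as an alternative only. Between the sites WT_TAM replicate 4 has no partner in it, so the block's log2 fold changes equal those without that library.

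Signs turned only among values not called with the settings used throughout, and of these Slc2a3 between the sites was called with the replicate block (limma adjusted p = 0.0120). Slc2a3 between the sites was 0.60 with array weights, 0.63 with the replicate block and -0.61 to 0.63 when 1 library was left out. In that last setting Ddit4 and Kdm3a also took both signs, at -0.23 to 0.30 and -0.47 to 0.11. Kdm3a was 0.065 with array weights and 0.11 with the replicate block. Between the genotypes, array weights, library total alone, quantile normalization and the omission of both WT_TAM replicate 4 and KO_TAM replicate 2 were tried. Hk1 was -0.11 with array weights, -0.022 with quantile normalization and -0.19 without both libraries. Pfkl was -0.0082 with array weights and -0.056 without both. Gapdh was 0.075 with array weights, 0.0041 with the library total alone, 0.087 with quantile normalization and 0.072 without both. Eno1 was 0.035, 0.0071 and 0.015 with array weights, the library total alone and without both. Ldha was 0.024 with the library total alone and 0.14 with quantile normalization. Egln1 was 0.082 with array weights and 0.052 without both. Leaving out 1 library gave -0.15 to 0.14 for Hk1, -0.019 to 0.16 for Pfkl, -0.16 to 0.025 for Gapdh, -0.14 to 0.00030 for Eno1, -0.099 to 0.016 for Ldha, -0.26 to 0.014 for Pfkfb4, -0.027 to 0.26 for Slc2a1 and -0.75 to 0.0094 for Egln1. The genotype values above are those of members printed per library in that comparison. Among the other members, leaving out 1 library also turned signs. Examples are Pdk1 (-0.20 to 0.19), Bnip3 (-0.14 to 0.27), P4ha1 (-0.23 to 0.17) and Mxi1 (-0.14 to 0.26). The cause of the turned signs was not tested. Low reads limit Eno2, Ddit4 and Adm, and in WT_SP also P4ha2 and Egln3. Between the sites Egln3 had a log2 fold change of 6.83 with 0.1 CPM added and 5.31 with 2 CPM added.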

Other observations

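Eno2 made up 0.0253% ± 0.00793 of the enolase reads per kilobase in WT_TAM and 0.0798% ± 0.0435 in WT_SP, and Pfkm made up 1.39% ± 0.760 of the phosphofructokinase reads in WT_TAM and 2.92% ± 1.13 in WT_SP (SD, n = 4 and 3). The libraries of the 2 groups overlapped in both shares. Of the pair Pfkfb3 and Pfkfb4, Pfkfb3 made up 39.2% ± 3.37 in WT_TAM and 40.3% ± 4.30 in WT_SP (SD, n = 4 and 3). Between the genotypes the share of Pfkfb3 was 39.1% to 65.1% in KO_TAM and 35.6% to 42.4% in WT_TAM. These shares were not tested.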
